A study of Sus scrofa with 12 samples.

Results

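The 5 genes described here, C3, CX3CR1, IL6R, CXCL10 and USP18, encode a complement protein, a chemokine receptor, an interleukin receptor, a chemokine and a protease of the interferon response. They are 5 of the 516 genes in the authors' deposited table of pig heart RNA after left ventricular pressure overload. The members were chosen by their rows in that table, which lists only genes with an unadjusted p under 0.05 between pressure overload and control in the authors' own comparison. The differences between these groups are therefore given as descriptions, without a test. Of the 5 genes, 2 were higher in pressure overload (C3 and CX3CR1) and 3 were lower (IL6R, CXCL10 and USP18).

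The pressure overload group is pigs whose ascending aorta carried a cuff that was tightened in steps, studied at 5 weeks of overload. The controls are pigs of matched age and weight. The series text counts 9 pigs with overload and 6 controls, while 6 libraries of each group were analysed here. The treatment text of the labels is the same for all 12 libraries, so whether the controls also carried a cuff is not given, nor are the breed, the sex or the age in numbers. The labelled tissue is heart. None of 13 cardiomyocyte markers was among the listed genes, so the tissue could not be checked against its defining markers. Each library has a title code of its own, but the labels do not say that a code stands for 1 pig, so the spread below is that between libraries and may be partly technical.

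C3 is the central protein of the complement cascade: its cleavage tags surfaces for uptake by phagocytes and releases a small inflammatory peptide. CX3CR1 is the receptor for fractalkine (CX3CL1) and is carried by monocytes, tissue macrophages and some lymphocytes, among them resident macrophages of the heart. IL6R binds interleukin-6 and passes the signal on through gp130 (IL6ST) and the JAK and STAT proteins. CXCL10 is a chemokine that draws activated T cells through the receptor CXCR3 and is induced by interferon gamma and by type I interferons. USP18 removes the ubiquitin-like protein ISG15 from its targets and also dampens signalling at the type I interferon receptor, so that it is both a product and a brake of the interferon response. In heart under pressure load these pathways are known from rodents and patients as part of the inflammatory reaction that accompanies hypertrophy and fibrosis.

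By the RefSeq annotation of Sscrofa11.1, the build named in the submitters' processing notes, the 5 genes are protein coding and lie on 5 chromosomes. C3 spans chromosome 2 from 72431470 to 72471622, CX3CR1 chromosome 13 from 23944386 to 23957567, and IL6R chromosome 4 from 95322426 to 95381393. CXCL10 spans chromosome 8 from 71693641 to 71695948, inside the annotated span of ART3, and USP18 chromosome 5 from 70183321 to 70227990. CX3CR1 overlaps the non-coding gene LOC110256576, while C3, IL6R and USP18 overlap no annotated gene. Each value is the sum over a gene, so where in the gene the reads fell is not known.

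Levels are in CPM, the read count of a gene after each library was scaled to the same total. The effective library size, recovered from the steps between CPM values, was 9.77 to 15.9 M counted units per library, with a mean of 12.6 ± 2.11 M for controls and 13.6 ± 1.33 M for pressure overload (SD, n = 6 each). The table also held fractions of a unit. Reads shared between features and mates of a pair counted apart both give fractions, and the files do not say which applied to a gene. Some values, such as 423.33 units for UBA7 in control replicate 4, were finer than mates counted apart give. CXCL10, CX3CR1 and IL6R were at whole units in 12 of 12 libraries and C3 in 11, but USP18 was at a whole unit in 3 and at a fraction in 9. By comparison, 242 of the 516 listed genes (46.9%) were at whole units throughout. Whether USP18 reads were shared with another feature was not tested. The fewest units behind a value were 41 for CX3CR1, 109.5 for USP18, 162 for IL6R, 294 for CXCL10 and 467 for C3. Counting error alone was then 15.6% of the value for CX3CR1, 9.56% for USP18, 7.86% for IL6R, 5.83% for CXCL10 and 4.63% for C3.

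A few libraries stood apart over the listed genes. Control replicate 5 was the highest or the lowest control for 58.3% of the 516 genes, pressure overload replicate 3 was at an extreme of its group for 61.4% and pressure overload replicate 4 for 53.5%, where equal libraries would each hold 33.3%. Control replicate 6 held 34.7% over the whole table, and yet it was at an extreme of the controls for 4 of the 5 genes here. Its part is given beside each gene.

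C3 was higher in pressure overload. The control libraries, replicates 1 to 6, were at 63.2, 49.3, 55.3, 47.3, 61.5 and 37.0 CPM, and the pressure overload libraries at 108, 77.5, 104, 83.5, 54.0 and 70.9 CPM. Of the pressure overload libraries, 5 of 6 lay above every control, and replicate 5 lay among the controls, so the groups overlapped. The mean was 52.3 ± 9.79 for controls and 83.0 ± 20.4 for pressure overload (SD, n = 6), a ratio of 1.59, and pressure overload was the higher in 33 of the 36 pairs that can be formed between the groups. The log2 difference on the log2(CPM + 1) scale was 0.64 ± 0.17 (SE, limma). The authors' deposited table gave C3 a fold change of 0.66 on the log2 scale and an unadjusted p of 0.0130 (adjusted p of 1). With each library left out in turn the ratio stayed between 1.49 and 1.70. The mean level given for C3 in the authors' deposited table, 197 CPM, lies above all 12 libraries, and C3 is 1 of 13 listed genes for which this holds. The authors' fold changes of the 5 genes were close to the ratios of mean CPM over these 12 libraries. Given the mean level of C3, whether the authors' fit, and so its p-values, rests on these 12 libraries alone is not known.

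CX3CR1 was higher as well, from a low level. Controls were at 11.14, 5.92, 5.22, 9.48, 6.77 and 3.25 CPM, while in pressure overload the libraries were at 12.9, 14.4, 16.9, 9.22, 9.66 and 9.37 CPM. Pressure overload replicates 1 to 3 lay above every control, while replicates 4 to 6 lay close together, below the highest control and near the second. The mean was 6.96 ± 2.89 and 12.1 ± 3.17 CPM (SD, n = 6), a ratio of 1.73, with pressure overload higher in 31 of 36 pairs. The log2 difference was 0.76 ± 0.25 (SE). In the authors' deposited table CX3CR1 had a log2 fold change of 0.78, an unadjusted p of 0.00912 and an adjusted p of 1. Without control replicate 6, the lowest of all, the ratio was 1.57.

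IL6R was lower in pressure overload. Controls were at 24.1, 18.9, 25.7, 28.7, 16.5 and 46.0 CPM, and pressure overload libraries at 19.8, 19.5, 17.0, 12.9, 18.01 and 13.3 CPM. The controls were spread 2.78-fold from lowest to highest and the pressure overload libraries 1.54-fold, and 4 of 6 controls lay above every pressure overload library. The mean was 26.6 ± 10.5 against 16.7 ± 3.01 CPM (SD, n = 6), a ratio of 0.629, with pressure overload lower in 30 of 36 pairs. The log2 difference was -0.58 ± 0.21 (SE). IL6R ranked highest of the 5 in the authors' deposited table, at 52 of 516 by p, with a log2 fold change of -0.67, an unadjusted p of 0.00294 and an adjusted p of 0.817. Control replicate 6 was the highest control, and without it the ratio was 0.735.

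CXCL10 was lower in pressure overload on average, and it varied widely among the controls. Control libraries were at 46.7, 78.6, 85.9, 192, 26.4 and 180 CPM, and pressure overload libraries at 37.8, 39.9, 87.0, 50.05, 46.8 and 24.2 CPM. Only control replicates 4 and 6 lay above every pressure overload library, while control replicate 5 was below all but 1 of them. The mean was 102 ± 69.0 and 47.6 ± 21.3 CPM (SD, n = 6), a ratio of 0.468, with medians of 82.3 and 43.3 CPM and pressure overload lower in 26 of 36 pairs. The log2 difference was -0.87 ± 0.41 (SE). The log2 fold change of CXCL10 was -1.09 and its unadjusted p 0.0379 in the authors' deposited table, with an adjusted p of 1. The ratio was 0.570 without control replicate 4 and 0.554 without control replicate 6.

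The lower mean of USP18 in pressure overload rested on control replicate 6. Controls were at 12.3, 7.91, 23.3, 24.9, 19.3 and 136 CPM, and pressure overload libraries at 18.7, 12.9, 25.6, 14.1, 16.9 and 10.9 CPM. Apart from that library, the controls and the pressure overload libraries covered nearly the same range. The mean was 37.3 ± 49.0 and 16.5 ± 5.23 CPM (SD, n = 6), a ratio of 0.442, but the medians were 21.3 and 15.5 CPM and pressure overload was lower in only 22 of 36 pairs. Without control replicate 6 the control mean was 17.5 ± 7.24 CPM (SD, n = 5), the ratio 0.942 and the log2 difference -0.03 in place of -0.52 ± 0.47 (SE). In the authors' deposited table USP18 had a log2 fold change of -1.17, the largest of the 5 in size, an unadjusted p of 0.0313 and an adjusted p of 1.

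**Figure D1:**
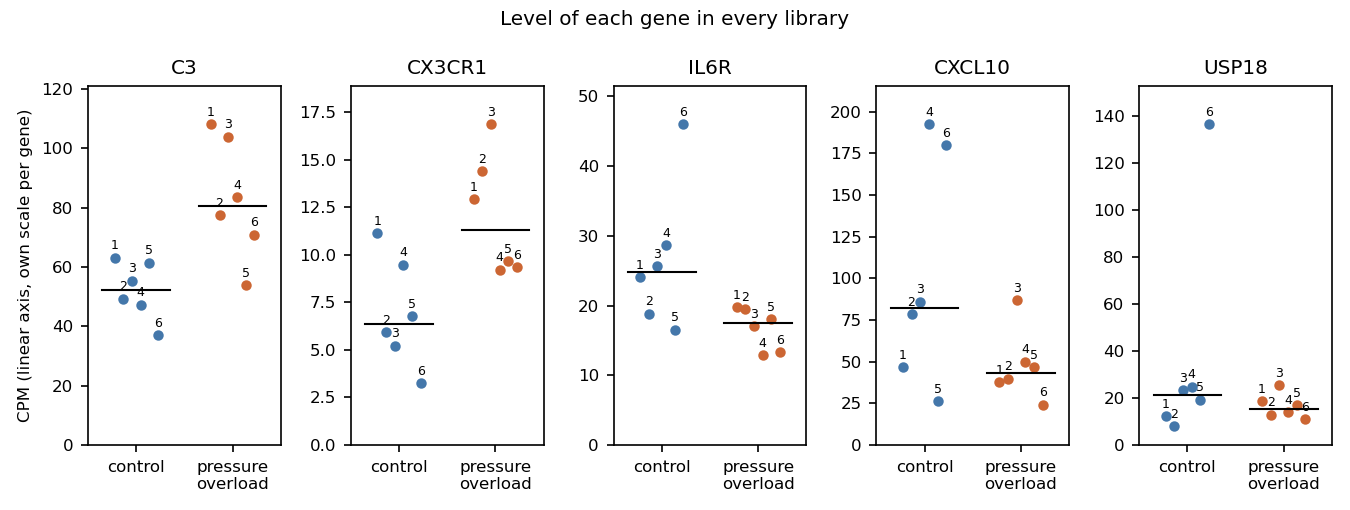
Level of each gene in CPM (linear vertical axes, 1 scale per gene) in the 6 control and 6 pressure overload libraries. Points are libraries with their replicate number and bars are group medians; C3 and CX3CR1 lie higher and IL6R and CXCL10 lower in pressure overload with overlap, and USP18 shows control replicate 6 at 136 CPM far above the rest.

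None of the 5 genes passed an adjusted p of 0.05 in the authors' deposited table, where 0.0394% of the genes tested did. The genes listed there are 3.39% of the 15235 tested by the authors, a number taken from the ratio of adjusted to unadjusted p: 0.926% were listed as higher and 2.46% as lower in pressure overload. The 2 sets of 6 libraries were fully apart for 9.69% of the listed genes and for 0 of these 5. Since the genes were chosen by this contrast, nothing is read from these shares. The 5 members were inside the listing threshold at unadjusted p-values from 0.00294 to 0.0379, and the last listed gene, DLL4, was at 0.04997 in the authors' deposited table. Genes outside the threshold were not analysed here. In tissue samples like these, fewer cells of a type and less RNA per cell cannot be told apart.

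**Figure D2:**
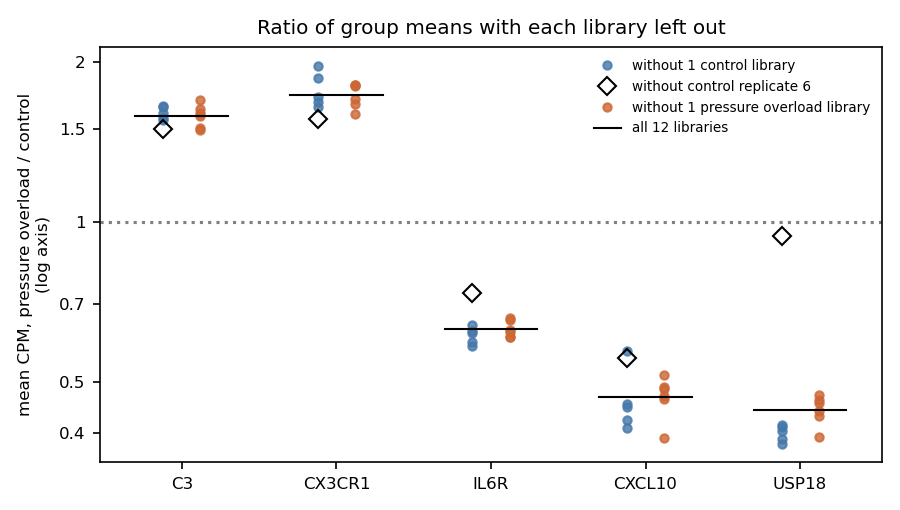
Ratio of mean CPM in pressure overload to that in controls (log axis) for each gene, with all 12 libraries (bar) and with 1 library left out at a time (points). The diamond leaves out control replicate 6, which takes USP18 from 0.442 to 0.942, close to 1, and leaves every gene on its side of 1.

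The labels number the libraries 1 to 6 and 10 to 15, with 3 of each group in each run of numbers, and do not say what the runs are. Within both runs C3 and CX3CR1 were higher in pressure overload, by log2 differences of 0.77 and 0.51 for C3 and of 0.96 and 0.57 for CX3CR1. In the first run their groups did not overlap: C3 was at 49.3 to 63.2 CPM in controls and 77.5 to 108 CPM in pressure overload. IL6R was lower in both runs, by -0.26 and -0.90, and so was CXCL10, by -0.41 and -1.32, with the larger difference in the second run each time. USP18 changed sign: it was higher in pressure overload in the first run, at 0.45, and lower in the second, at -1.49. In the second run the control means were 132.8 CPM for CXCL10 and 60.2 CPM for USP18, against 70.4 and 14.5 CPM in the first. The second run holds control replicates 4 to 6. Replicate 6 weighs on the mean of USP18, and replicates 4 and 6 both weigh on that of CXCL10. Those 3 controls were at 192, 26.4 and 180 CPM for CXCL10 and at 24.9, 19.3 and 136 CPM for USP18. For IL6R they were at 28.7, 16.5 and 46.0 CPM. For USP18 the groups of the second run did not overlap, with controls at 19.3 CPM or more and pressure overload at 16.9 CPM or less. Of the listed genes described below, KDR, MICAL3 and TNFSF13 were among those without overlap in either run, while NUP54 overlapped in both. The share of all listed genes without overlap in a run of 3 against 3 libraries was not counted. The genes were chosen by this contrast, so nothing is read from the separation within a run. The differences between the runs were not tested.

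CXCL10 and USP18 did not peak in the same control library, but in the same pressure overload library. Among controls CXCL10 was highest in replicate 4, at 192 CPM, where USP18 was at 24.9 CPM and second. USP18 was highest in replicate 6, at 136 CPM, where CXCL10 was second at 180 CPM. Control replicates 4 and 6 were thus the top pair for each gene, but the ratio of CXCL10 to USP18 was 7.73 in the one and 1.32 in the other. In pressure overload replicate 3 was highest for both, at 87.0 and 25.6 CPM, and replicate 6 was lowest for both, at 24.2 and 10.9 CPM. Replicate 3 was the highest pressure overload library for 245 of the 516 listed genes, so many other listed genes peaked there too.

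**Figure D3:**
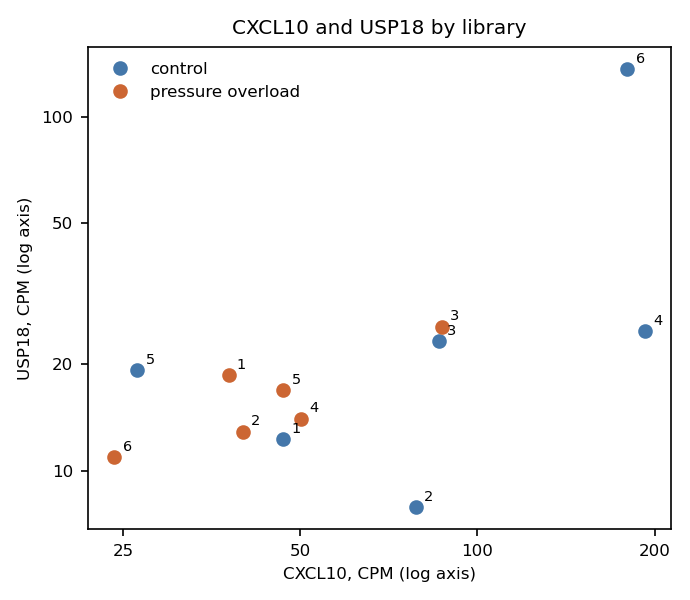
USP18 against CXCL10 in CPM (log axes) in each library, with replicate numbers. Control replicates 4 and 6 lie to the right at 192 and 180 CPM of CXCL10 but are far apart in USP18, at 24.9 and 136 CPM, and pressure overload replicate 3 lies above and to the right of its group.

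Over the 6 controls, log2(CPM + 1) of CXCL10 and USP18 had a Pearson r of 0.56 (exact permutation p = 0.242, two-sided; adjusted 0.402) and a Spearman rho of 0.71 (exact permutation p = 0.136; adjusted 0.483). Over the 6 pressure overload libraries r was 0.84 (exact permutation p = 0.0528; adjusted 0.306) and rho 0.60 (exact permutation p = 0.242; adjusted 0.483). Adjustment was by Benjamini-Hochberg over 20 relations, the 10 pairs of genes in each group. Without the 2 libraries farthest from the median of CXCL10, r was -0.23 in controls and -0.27 in pressure overload. That removal leaves 4 libraries over a narrowed range of CXCL10. With 1 library left out at a time r stayed positive, from 0.27 to 0.70 in controls and from 0.59 to 0.94 in pressure overload. The pair was proposed with these values known, and CPM values of 1 library share its depth.

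By Pearson r the other pairs showed a different arrangement of signs in the 2 groups. In controls C3 and CX3CR1 ran together, with r at 0.68, and IL6R, CXCL10 and USP18 ran together, with r from 0.56 to 0.86, while the 6 pairs between these sets were negative, from -0.33 to -0.84. The strongest negative pair was C3 with CXCL10, at r = -0.84 (exact permutation p = 0.025; adjusted 0.306), and the strongest positive pair IL6R with USP18, at 0.86 (exact permutation p = 0.0611; adjusted 0.306). In pressure overload all 10 pairs were positive by Pearson, from 0.16 to 0.84. The share of positive pairs over all listed genes was not counted, so nothing particular to these genes is read from this. Pressure overload replicate 3 was the highest of its group for 245 of the 516 listed genes. By Spearman IL6R with CXCL10 was negative there, at rho = -0.31, and the other pairs were positive. Without the 2 libraries farthest from the median of the first gene, r there was -0.93 for IL6R with CXCL10. It was then -0.72 for IL6R with USP18 and -0.016 for CX3CR1 with CXCL10, and other than CXCL10 with USP18 the rest stayed positive. In controls that removal gave -0.44 for C3 with CX3CR1 and 0.23 for C3 with USP18. Of the 20 relations, 1 had an unadjusted exact permutation p under 0.05 by Pearson, that of C3 with CXCL10 in controls. By Spearman the only such relation was IL6R with CXCL10 in controls, at rho = 0.89 (exact permutation p = 0.0333, adjusted 0.389). After adjustment 0 passed by Pearson or Spearman (smallest adjusted p = 0.306), where 6 libraries allow no two-sided p under 0.00278. The difference between the groups was not tested.

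Control replicate 6 carried part of the arrangement in controls. It was the lowest control for C3 and CX3CR1, the highest for IL6R and USP18 and the second for CXCL10. Each of these places lies on the side away from the pressure overload group, which the choice of the genes by that contrast favours. Without it the 3 negative relations of CX3CR1 turned to 0.38 with IL6R, 0.082 with CXCL10 and 0.014 with USP18. That of C3 with CXCL10 was then -0.86, that with IL6R -0.35 and that with USP18 -0.02.

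**Figure D4:**
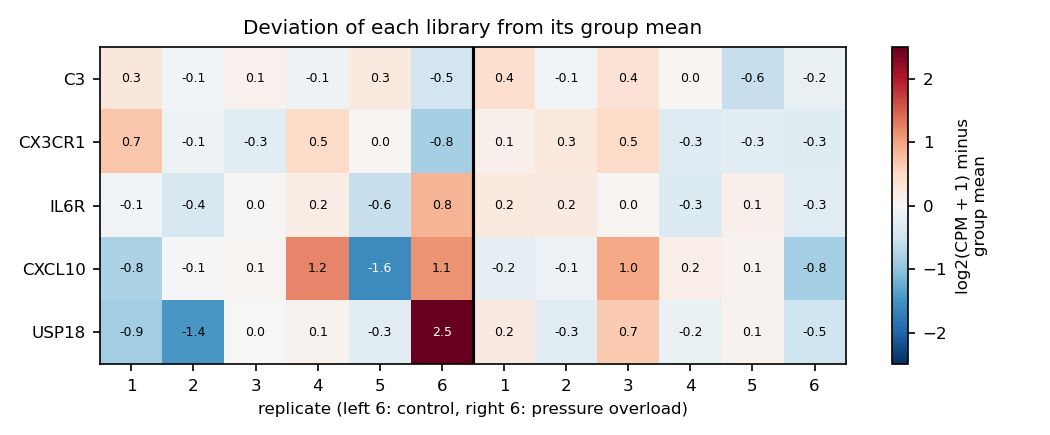
Deviation of log2(CPM + 1) from the group mean (colour and printed value) for the 5 genes in the 6 control and 6 pressure overload libraries. Control replicate 6 is negative for C3 and CX3CR1 and positive for the other 3 genes, and pressure overload replicate 3 is at or above its group mean for all 5.

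**Figure D5:**
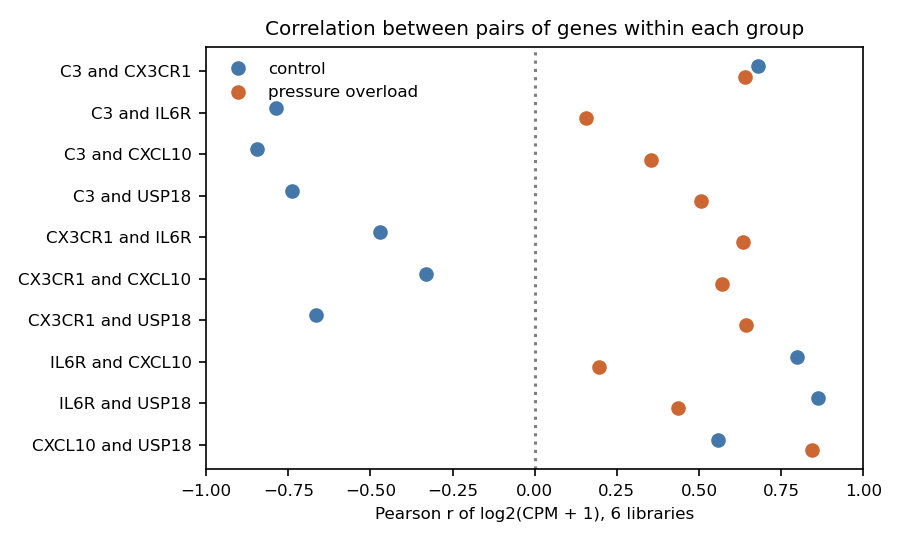
Pearson r of log2(CPM + 1) for the 10 pairs of genes over the 6 control and the 6 pressure overload libraries. Pressure overload points all lie to the right of 0, and control points lie to the left for the 6 pairs that join C3 or CX3CR1 with IL6R, CXCL10 or USP18.

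The 3 listed genes whose pattern was most like that of each member are given as a description, by Pearson r over 12 libraries after removal of each group's mean, among 511 genes. For CXCL10 they were NUP54 (0.76), a protein of the nuclear pore, P4HA1 (0.74), a collagen prolyl hydroxylase, and SETD7 (0.68), a lysine methyltransferase. For IL6R they were PLEKHF1 (0.89), AGO4 (0.87), an Argonaute protein, and NUP54 (0.86). For USP18 they were HIF3A (0.88), a subunit of the hypoxia-inducible factors, ZDHHC23 (0.85), of the palmitoyltransferase family, and REC8 (0.85), a meiotic cohesin. For C3 they were RSF1 (0.83), a chromatin remodelling factor, DDX46 (0.80), an RNA helicase of splicing, and SPECC1 (0.78), and for CX3CR1 they were CRACDL (0.83), METTL25 (0.78) and N4BP2 (0.77). RSF1 and DDX46 were lower in pressure overload in the authors' deposited table although C3 was higher, and so were CRACDL, METTL25 and N4BP2 beside CX3CR1. Without control replicate 6 the r of USP18 was 0.66 with HIF3A, 0.69 with ZDHHC23 and 0.63 with REC8.

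A listed gene lay within 100 kb of 2 of the members. NUP54 lies 96.2 kb from CXCL10, from 71792153 to 71833180 on chromosome 8, and overlaps the same ART3 span. Its r with CXCL10 ranked first at 0.76 over the 12 libraries, and was 0.69 and ranked 8 without control replicate 6. MICAL3, an actin-oxidising enzyme, lies 50.4 kb from USP18 on chromosome 5, from 69887884 to 70132969, and its r with USP18 was 0.18. NUP54 was at a fraction of a unit in 4 of 12 libraries and CXCL10 in 0.

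Among the other genes of these pathways few were listed. Of 38 complement genes, 2 were listed, C3 as higher and C8G, the gamma chain of the terminal component C8, as lower. C8G controls were at 9.33, 8.09, 4.19, 11.9, 12.7 and 6.66 CPM and pressure overload libraries at 2.54, 5.43, 8.05, 4.84, 6.15 and 4.603 CPM, with 4 of 6 controls above every pressure overload library. Its log2 fold change was -0.73 and its unadjusted p 0.0201 in the table deposited by the authors (adjusted p of 1). The components of C1, the C3 convertase factors and the C3a receptor were not listed. Of 50 chemokines and receptors, CXCL10 and CX3CR1 alone were listed, not their partners CXCR3 and CX3CL1. IL6R was the single listed gene of 36 in the interleukin-6 and JAK-STAT list, without IL6, IL6ST or STAT3. Of 60 genes of the interferon pathway, CXCL10 and USP18 were listed, both lower, and ISG15, MX1 and IFIT1 were not.

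Together, 6 of the 177 genes of these 4 lists were listed (3.39%), 2 higher and 4 lower, against 3.39% of all genes tested. These shares have unlike denominators, so their match is not read as a result. Of the 177 genes, 169 were annotated, and how many of them the authors tested is not known. Their median log2 fold change was -0.70 and that of all 516 listed genes -0.42 in the authors' deposited table. None of the 6 passed an adjusted p of 0.05. A gene that is not listed may still differ, and its values were not analysed here.

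Of 105 markers of cell types, 3 were listed (2.86%), against 3.39% of all genes tested, and the levels of the others were not analysed here. Of the 105 markers 101 were annotated, and how many of them were tested is not known, so these shares too have unlike denominators. Of 20 monocyte and macrophage markers CX3CR1 alone was listed, and of 16 lymphocyte, 12 neutrophil and mast cell, 12 fibroblast and 10 smooth muscle and pericyte markers none was. Of 12 endothelial markers 1 was listed: KDR, a receptor for vascular endothelial growth factor, at 89.9, 147, 104, 98.8, 104 and 62.1 CPM in control replicates 1 to 6 and 162, 191, 188, 117, 112 and 128 CPM in pressure overload. It was higher in pressure overload, like C3 and CX3CR1, and its lowest value was again that of control replicate 6. Of 10 red cell and platelet markers ITGA2B, a platelet integrin, was listed, at 52.5 ± 4.37 CPM for controls and 36.6 ± 7.83 CPM for pressure overload (SD, n = 6). The part of cell composition in the differences of the 5 genes was not tested.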

How the data were processed

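The authors deposited 1 table with CPM values for 12 libraries and 2 group means, per the file headers, which equal the means of the columns. No source used here says whether libraries were rescaled first. The same deposited table gives, from the authors' generalized linear model, a log2 fold change and mean log2 CPM, a likelihood-ratio score, and unadjusted and adjusted p-values. Per the submitters' processing notes, the tools named are Subread 1.5.3 (featureCounts), SAMtools 1.5, STAR 2.7.2b, Trim Galore 0.4.5 and FastQC, and the build is Sscrofa11.1. Strand setting, gene annotation and handling of shared reads: these were not given in the sources used here.

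Library size was searched between 18 and 36 M for the step that makes CPM values whole within 0.02. On average 95.8% of values up to 5000 steps were whole, and 82.3% of those were even, so a counted unit was taken as 2 steps, at which 78.9% were whole; the finer step would double every size (19.5 to 31.9 M). No count model was fitted, because the table holds only genes listed on the outcome. Counting errors cover counting alone. Log2 differences come from limma 3.58.1 (R 4.3.3, intensity trend) on log2(CPM + 1) over the 512 genes at 1 CPM or more in at least 6 libraries; they understate low genes and are given without p. Correlations used exact permutation tests (Python 3.11.15). The code was tested on simulated data. No 2 libraries held identical values.

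Members, gene lists and the rule for named genes (all members, the 3 genes most like each, and listed genes of the lists) were chosen with earlier results of these data known. Alternatives were other pseudocounts, no filter, no trend, 2 rescalings, each library left out, each run of label numbers, and unlogged CPM. Planned promoter motifs were not searched, since sequences were not used here.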

Additional observations from a re-analysis of the deposited data

Results flagged for a closer look

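Of the 10 groups of 6 libraries examined (5 genes in controls and in pressure overload), 1 held a library far from the others. USP18 in control replicate 6 was at 136 CPM, and its gap to the next control, 24.9 CPM, took 0.868 of the range of the group, above the critical value of Dixon's test for 6 libraries. Chance takes about 1 in 20 groups past that critical value where the values are normally distributed and were not selected. That rate does not apply here, since the genes were chosen by a contrast that this library enters. The same library had 180 CPM of CXCL10 and 46.0 CPM of IL6R, second and first among controls. Of the other 19 ends of groups, the nearest to the critical value were CXCL10 in pressure overload replicate 3, at 0.588, and IL6R in control replicate 6, at 0.587. The cause was not tested.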

How the results depend on the processing

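Of 100 alternative values for the log2 differences of the 5 genes, 99 kept their sign and moved by less than 1 SD between libraries. The exception was USP18, at 0.45 among label numbers 1 to 6 alone in place of -0.52; the cause was not tested. USP18 was also close to 0 without control replicate 6, at -0.03. Median-of-ratios rescaling took C3 from 0.64 to 0.96, CX3CR1 from 0.76 to 1.05, IL6R from -0.58 to -0.27, CXCL10 from -0.87 to -0.55 and USP18 to -0.22. Its factors come from listed genes, most of them lower, so an upward shift is built in. Of 180 alternative values for the correlations, 9 changed sign and none passed the adjusted threshold. Rescaling gave -0.22 for C3 with IL6R, -0.33 for IL6R with CXCL10 and -0.14 for IL6R with USP18 in pressure overload. With 1 library left out at a time, pressure overload values ranged from -0.14 to 0.53 for C3 with IL6R, from -0.054 to 0.63 for C3 with CXCL10 and from -0.33 to 0.38 for IL6R with CXCL10. Control values ranged from -0.62 to 0.38 for CX3CR1 with IL6R, from -0.75 to 0.082 with CXCL10 and from -0.85 to 0.014 with USP18, and were above 0 without replicate 6 alone. CXCL10 with USP18 ranged from 0.27 to 0.70 in controls and from 0.59 to 0.94 in pressure overload. Leaving out control replicate 6 for the genes most like each member was added after the data were seen, and 4 of the 15 stayed among the closest 3. At the authors' adjusted p under 0.05 each pathway list held 0 listed genes. The 6 libraries a group and, for CX3CR1, few reads limit the precision. No paired analysis was possible because the labels give no number shared by libraries of both groups.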

Other observations

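Further genes of inflammatory signalling were listed outside the lists and are named here after their values were seen. UBA7, the enzyme that activates ISG15 and so acts opposite to USP18, was at 19.5, 18.9, 21.5, 28.1, 49.1 and 64.1 CPM in controls and 18.7, 19.0, 34.7, 13.5, 19.99 and 13.2 CPM in pressure overload. Its highest control was replicate 6 and its highest pressure overload library replicate 3, as for USP18. Its r with USP18 after removal of group means was 0.78 over 12 libraries, ranked 10 among 511 genes. Without control replicate 6 it was 0.64 and ranked 34. Like USP18, UBA7 was higher in pressure overload among label numbers 1 to 6, at a log2 difference of 0.21, and lower among 10 to 15, at -1.49. The higher level in the first run rested on replicate 3, since replicates 1 and 2 were within or below the range of its controls. NFKBIZ, a nuclear protein of the I-kappa-B family, averaged 14.4 ± 4.66 CPM in controls against 9.43 ± 3.77 in pressure overload (SD, n = 6). NFKBID, of the same family, averaged 11.6 ± 2.72 CPM in controls against 7.05 ± 1.97 in pressure overload. TRAF3IP2, the adaptor of the interleukin-17 receptor, averaged 17.9 ± 2.68 against 11.9 ± 3.25 CPM, and TNFSF13, the B cell cytokine APRIL, 15.7 ± 1.96 against 10.9 ± 2.08 CPM.

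Among scavenger and leukocyte genes, COLEC12, a collectin, averaged 16.7 ± 3.91 CPM in controls and 23.1 ± 5.37 in pressure overload, and ADGRE5 (CD97) 62.5 ± 10.4 and 79.0 ± 9.33 CPM. LYN, a kinase of blood cells, averaged 27.1 ± 2.27 and 36.2 ± 8.53 CPM, and STAB1, a scavenger receptor of macrophages and endothelium, 140 ± 38.7 and 107 ± 23.4 CPM. GPNMB, a membrane glycoprotein of macrophages, averaged 7.47 ± 5.41 and 16.1 ± 6.46 CPM. Each had an adjusted p of 1 in the authors' deposited table.

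The mean level of C3 in the authors' deposited table lies above its level in every one of the 12 libraries. It is a log2 CPM of 7.62, or 197 CPM, whereas the 12 libraries average 67.6 CPM and reach 108 CPM at most. The same holds for 13 of the 516 listed genes, with GPNMB farthest off at 149.9 CPM against a highest library of 22.4 CPM, while the median gap over the listed genes was 0.10 on the log2 scale. For CX3CR1, IL6R, CXCL10 and USP18 the deposited mean lay within the range of the 12 libraries. The cause was not tested.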
